A study of Mus musculus with 57 samples.

Results

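Bone morphogenetic protein (BMP) genes were followed through 57 bulk RNA-seq libraries of the mouse embryo. The set holds 10 genes, picked by name from the 56860 genes of the count tables: the ligands Bmp2, Bmp4, Bmp5, Bmp6 and Bmp7, the extracellular antagonists and modulators Nog, Grem1 and Bmper, and the response genes Id1 and Smad6. The study compared wild-type (wt) embryos with Hoxa5-/- embryos, which lack a working copy of a homeobox gene needed for the axial skeleton and for the respiratory tract. Both genotypes were kept on the 129/Sv background, and the mutants were homozygous for Hoxa5tm1Rob, an allele in which a neomycin cassette interrupts the homeobox in exon 2. There were 4 wt and 4 Hoxa5-/- libraries each of trachea, lung and diaphragm at E15.5, of lung at E12.5 and of somites at E12.5. Somites at E10.5 gave 4 wt and 3 Hoxa5-/- libraries. At E18.5 there were 5 libraries of each genotype from iBAT, the brown fat pad between the shoulder blades. The somite samples reached from C3 to T2, at the level of the neck and upper chest, and the dissection was meant to leave out limb, spinal cord and chest organs, although neural markers were measured in them (given with the somite stages). Libraries were made from polyA RNA of whole tissue, and the replicates are described as biological. The labels do not say whether embryos were pooled. For wt, the paper counts 4 embryos for the respiratory tissues and somites and 5 for iBAT, as many as the libraries.

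BMPs are secreted dimers of the TGF-beta superfamily that bind type I and type II serine/threonine kinase receptors. The receptors phosphorylate Smad1, Smad5 and Smad9, which join Smad4 in the nucleus and switch on genes such as Id1, whose protein blocks basic helix-loop-helix factors, and Smad6, an inhibitory Smad that dampens the pathway. Nog (noggin) and Grem1 (gremlin 1) hold ligands away from their receptors, while Bmper, the vertebrate crossveinless-2, can block or favour signalling. In the embryo Bmp4 is known from the distal lung buds, BMPs and their antagonists pattern the somites and drive cartilage formation around the airways, and BMP signalling takes part in the making of brown adipocytes.

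Smad proteins bind short DNA letters, and DNA upstream of or at the start of both response genes is shown. Their transcripts stand for the response to the pathway here, and signalling itself was not measured. The sequences are from the GRCm39 genome, 5′ to 3′ on the strand of the gene. The Id1 stretch is chr2:152577021-152577140 on the plus strand and upstream of the gene start, with the GC-rich palindrome GGCGCC in capitals. The Smad6 stretch is chr9:63929322-63929441 on the minus strand, from 100 bases upstream to the first 20 bases of exon 1, with the palindrome GTCTAGAC in capitals.

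Id1: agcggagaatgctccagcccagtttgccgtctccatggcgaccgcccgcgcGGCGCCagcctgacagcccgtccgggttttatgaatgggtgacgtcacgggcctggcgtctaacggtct

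Smad6: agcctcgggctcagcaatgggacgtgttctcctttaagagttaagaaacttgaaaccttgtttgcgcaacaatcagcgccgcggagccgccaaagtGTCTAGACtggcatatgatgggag

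Both palindromes read the same on either strand, and they do not overlap each other. GGCGCC lay at positions -1099 to -1094 from the start of Id1, and 152 of the 21784 protein-coding genes with such a window (0.698%) held it in the same 120 bases. The Id1 window was placed around this match. Id1 therefore held it by choice, and the share does not tell how unusual the match is. GTCTAGAC spanned the start of Smad6, from position -4 to 4, and 12 of 21784 genes (0.0551%) held it in the corresponding window. In the promoters from 250 bases before to 50 after the start, GGCGCC was found for Grem1 and Nog among the 10 genes and for 3050 of 21784 genes (14%), and GTCTAGAC for Smad6 alone among the 10 and for 48 of 21784 (0.22%). These matches describe letters and are not measured binding sites.

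Total counts ranged from 18369905 to 72991481 per library, and the 10 genes were therefore well covered in most tissues, with the fewest counts for Grem1 in iBAT (3 to 34 per library). Trachea, lung and diaphragm were sequenced as single-end reads of 100 bases and stand in 1 table, whereas somites and iBAT were sequenced as paired-end reads of 150 bases at another centre and stand in the other. Across the tables, tissue and sequencing centre cannot be told apart, so tests were made only within a table. Levels are given in TPM, a share of transcripts that allows for gene length. Differences are log2 fold changes (FC) of the counts with their standard error (SE), from the quasi-likelihood test of edgeR with TMM scaling, and a call needs an adjusted p (padj, Benjamini-Hochberg over all genes tested) under 0.05 and a fold of at least 1.5. For differences of the genotype effect between tissues or stages, a call needs the adjusted p alone. In bulk tissue, fewer cells of a type and less RNA per cell cannot be told apart.

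Hoxa5 itself separated the genotypes in every tissue. In wt lung at E12.5 its level was 276, 233, 288 and 304 TPM, against 74.8, 67.4, 74.9 and 67.2 TPM in Hoxa5-/- lung. At E15.5 wt lung had 171, 156, 144 and 170 TPM and mutant lung 47.7, 47.1, 42.2 and 30.8 TPM. No mutant library reached the lowest wt library of its tissue, and reads were counted in each. The levels were 103, 94.8, 76.3 and 108.9 TPM in wt trachea against 29.1, 30.2, 20.9 and 37.7 TPM in mutant trachea. Diaphragm had 60.6, 73.5, 94.7 and 60.1 TPM in wt and 15.8, 23.1, 26.6 and 15.3 TPM in Hoxa5-/-. Somites at E12.5 had 98.4, 92.7, 112 and 107 TPM against 32.4, 29.2, 29.7 and 43.6 TPM. As a ratio of the mutant to the wt mean, the gap was narrowest in somites at E10.5 (0.546). The levels there were 173, 164, 236 and 171 TPM in wt and 112, 108 and 85.2 TPM in mutants. In iBAT wt embryos had 49.5, 47.6, 44.1, 49.0 and 51.5 TPM and mutants 11.4, 12.8, 16.2, 10.6 and 9.84 TPM. The log2 FC ran from -0.92 (SE 0.12, padj = 0.0459) in somites at E10.5 to -1.94 (SE 0.09, padj = 7.15e-06) in lung at E12.5. When 1 library was left out, Hoxa5 kept its call in 1 of 7 fits in E10.5 somites and in 0 of 8 in trachea (padj = 0.0475 with all libraries), and in every such fit of the other tissues.

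The tissue labels matched their markers. In diaphragm the most abundant skeletal muscle marker was Acta1, skeletal actin, at a mean of 12574 TPM in wt. In iBAT the most abundant brown fat marker was Fabp4, a fat cell lipid carrier, at 6258 TPM, while the globin gene Hbb-bs of blood had 7417 TPM there. Sftpc, the surfactant gene of distal lung epithelium, had 4701 TPM in wt lung at E15.5. Somites had Meox1, a somite homeobox gene, at 147 TPM at E10.5 and 88.7 TPM at E12.5. Trachea had Krt8 at 481 TPM and the cartilage collagen Col2a1 at 813 TPM, but also heart muscle genes led by Myl7 at 3317 TPM, and the summed TPM of 5 heart muscle markers was 3138 to 5509 in wt and 1534 to 3039 in Hoxa5-/- trachea.

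Several libraries stood apart. In diaphragm, wt replicate 3 had 655 TPM summed over 10 lung and tracheal epithelium markers, where the other wt libraries had 48.4 to 142 TPM and the mutants 38.0 to 132 TPM. Diaphragm libraries also varied in 5 liver markers, which summed to 1510 to 8531 TPM in wt and 346 to 10507 TPM in mutants. In lung at E15.5, Hoxa5-/- replicate 4 had 2163 TPM of these markers against 3050 to 9867 TPM in the other mutants, and 537 TPM of blood endothelium markers against 835 to 930 TPM. Leaving out wt replicate 3 of the E10.5 somites raised the number of genes called between genotypes there from 4 to 386 of all genes tested. Among the trachea mutants, replicate 3 held 4186 TPM of cartilage and 3271 TPM of skeletal muscle markers, and in E12.5 lung Hoxa5-/- replicate 1 was rich in blood genes.

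In wt embryos each ligand had its own order of tissues. Bmp4 was the most abundant ligand in 6 of the 7 tissues and stages, with iBAT as the exception. Its levels in lung at E15.5 were 147, 160, 171 and 153 TPM, above the 92.9 to 104 TPM of lung at E12.5 without overlap. Trachea (83.4 ± 6.17 TPM, SD, n = 4), diaphragm (69.0 ± 11.5) and E12.5 somites (63.4 ± 1.82) followed, each overlapping its neighbour in that order. Bmp4 was lowest in iBAT, at 1.55 to 3.40 TPM in 5 libraries. Bmp5 had the same summit, with 53.6 ± 3.14 TPM in E15.5 lung (n = 4). E12.5 somites, trachea and E12.5 lung overlapped around 25.7 to 27.4 TPM, and the lowest mean was again in iBAT (1.65 ± 0.338 TPM, n = 5).

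Bmp2 and Bmp6 peaked elsewhere. Bmp2, a strong inducer of cartilage and bone, had 26.9, 27, 17.2 and 27.4 TPM in wt trachea and 22.7, 21.1, 24.2 and 24.5 TPM in wt somites at E12.5. These levels overlapped, and every other tissue stayed at or below 6.93 TPM. Bmp6, best known as the signal that sets hepcidin in the liver, was likewise highest in trachea (15.9 ± 2.67 TPM) and E12.5 somites (13.3 ± 0.607 TPM), which overlapped. Unlike the other ligands it was lowest in E12.5 lung, at 1.61 ± 0.173 TPM, and in iBAT it had 5.61, 7.36, 6.88, 4.17 and 4.47 TPM. Bmp7, a ligand tied to kidney and brown fat development, was highest in somites at E12.5, where the 4 libraries lay between 57.6 and 61.4 TPM, above every other tissue.

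Bmp4 made up 65.3% of the summed ligand TPM in E15.5 lung and 68.1% in diaphragm, but 33.9% in E12.5 somites, where Bmp7 supplied 31.9%. In iBAT Bmp6 took the largest share, 43.1% ± 7.49 (SD, n = 5), and Bmp4 17.8%. The 5 ligands together summed to 242 ± 8.39 TPM in E15.5 lung, 191 ± 18.2 in trachea, 187 ± 6.88 in E12.5 somites, 101 ± 15.6 in diaphragm and 13.2 ± 2.50 in iBAT. On the TPM scale the ligand sum was thus highest in E15.5 lung and lowest in iBAT.

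**Figure D1:**
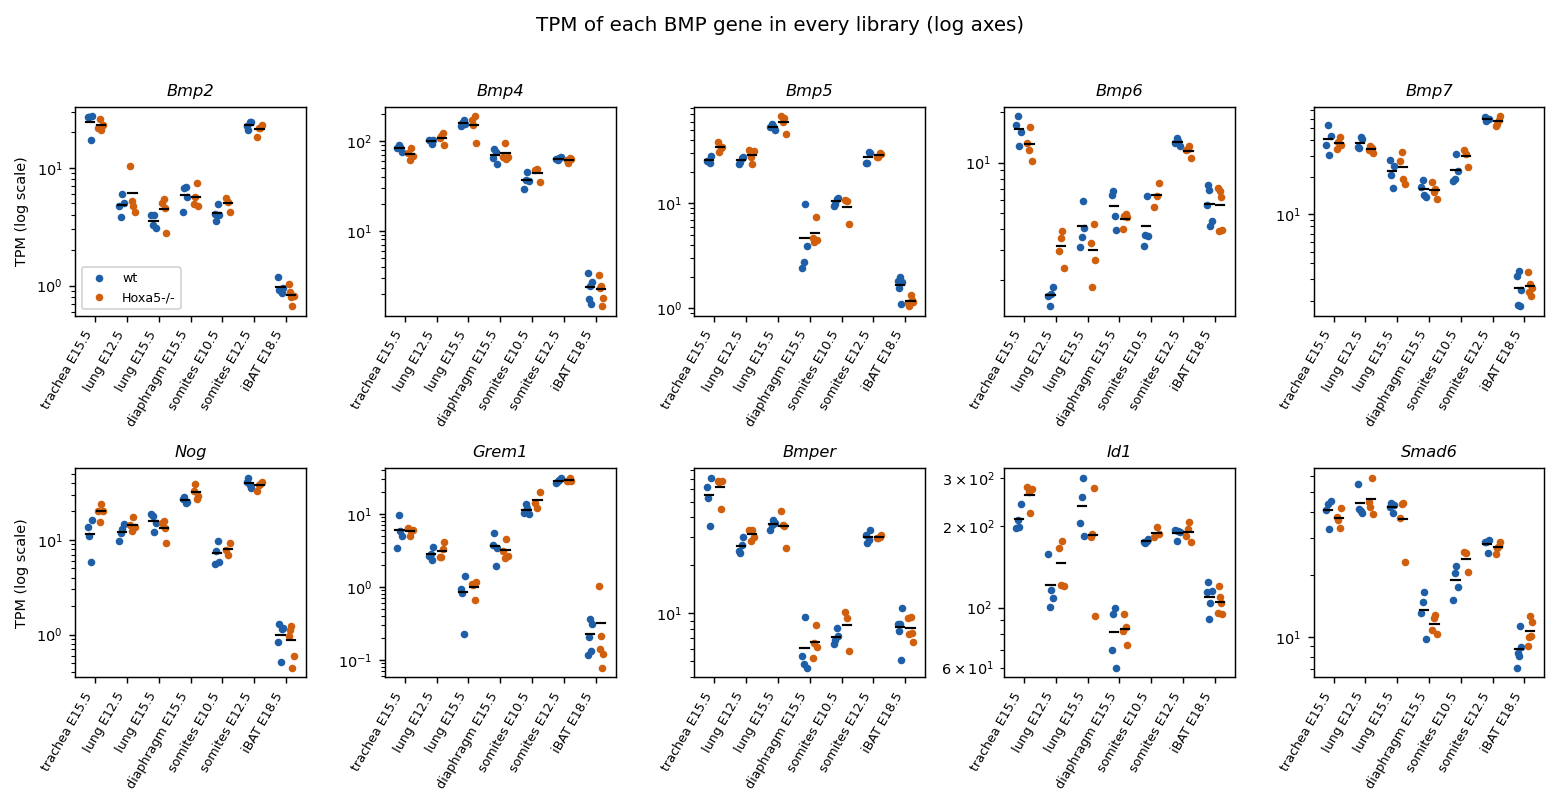
Level of each of the 10 genes in TPM (log axis) in every library, by tissue and stage, with wt in blue, Hoxa5-/- in orange and a black line at each group mean. The colours overlap in nearly every group, while the tissues differ: Bmp4 runs from 2.37 TPM in wt iBAT to 158 TPM in wt E15.5 lung.

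The antagonists favoured the E12.5 somites. Nog had 41.2, 45.4, 38.2 and 35.1 TPM in wt somites at E12.5, above the 24.8 to 28.4 TPM of wt diaphragm, its second highest tissue. Grem1 had 26.4, 28.5, 29.2 and 31.2 TPM at E12.5 and 10.04 to 13.8 TPM in somites at E10.5. No other tissue reached 10 TPM of Grem1, and in iBAT its 5 wt libraries held 0.115 to 0.359 TPM, so that its mean spanned 128-fold between the highest and lowest tissue, the widest span of the 10 genes. Bmper differed from both, with its highest values in trachea (61.9, 52.7, 35.3 and 71.0 TPM) and in E15.5 lung (36.3 ± 2.22 TPM), which overlapped. Its lowest mean was in diaphragm, 6.06 ± 2.35 TPM.

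The response genes varied least. Id1 had 237 ± 52.8 TPM in E15.5 lung and 212 ± 20.9 TPM in trachea, which overlapped, and 80.9 ± 19.1 TPM in diaphragm, a span of 2.93-fold between the highest and lowest means. Smad6 was similar in E12.5 lung (44.1 ± 7.16 TPM), E15.5 lung (42.4 ± 2.05) and trachea (40.8 ± 5.51), all overlapping, with 13.5 ± 2.87 TPM in diaphragm and 8.74 ± 1.56 TPM in iBAT. Thus Id1 and Smad6 did not share one order: Id1 in E10.5 somites (173 to 179 TPM) exceeded Id1 in E12.5 lung, whereas Smad6 there (15.1 to 21.9 TPM) was below every E12.5 lung library.

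**Figure D2:**
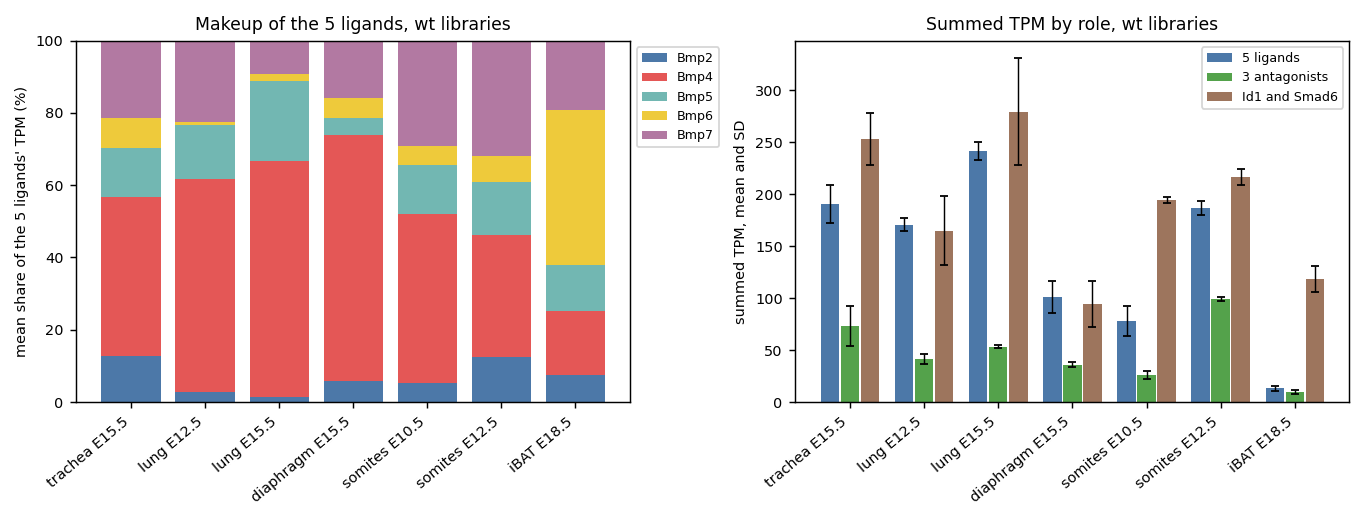
Left, mean share (%) of the summed TPM of the 5 ligands held by each ligand in wt libraries of each tissue and stage. Right, summed TPM (mean and SD over wt libraries, n = 4, or 5 for iBAT) of the 5 ligands, the 3 antagonists, and Id1 with Smad6: Bmp4 is the largest ligand share except in iBAT, where Bmp6 holds 43.1%, and the antagonists are highest in E12.5 somites.

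The scale of measurement matters for iBAT and diaphragm. Over all genes tested, the TPM ratio of iBAT to E12.5 somites was lower than the TMM-scaled FC by a median of 1.21 on the log2 scale, and that of diaphragm to lung by 0.31. Each of the 44 called differences between tissues described below had the same direction on both scales. Values that were not called could differ in sign, as shown for Id1 in iBAT.

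Between wt tissues and stages, 44 of 60 tests of the 10 genes were called by edgeR, and 44 by DESeq2, where DESeq2 called 23.8% of all genes between lung stages, 29.6% between trachea and lung, 35.2% between diaphragm and lung, 31.3% between diaphragm and trachea, 41.3% between somite stages and 65.1% between iBAT and somites. These comparisons share libraries. In lung from E12.5 to E15.5, while the airways branch, 4 genes rose and 2 fell, where 24.6% of all genes tested were called (15.4% higher, 9.15% lower). Bmp4 rose by a log2 FC of 0.62 (SE 0.07, padj = 4.02e-05), and this call was lost without wt replicate 3 of either stage because the fold dropped under 1.5. Bmp5 rose by 1.03 (SE 0.07, padj = 2.27e-06), Bmp6 by 1.33 (SE 0.21, padj = 0.000474) and Id1 by 0.94 (SE 0.18, padj = 0.00149). Bmp7 fell by 0.81 on the log2 scale (SE 0.14, padj = 0.000807) and Grem1 by 1.77 (SE 0.38, padj = 0.00294). Grem1 in wt lung went from 2.7, 2.88, 2.35 and 3.53 TPM to 0.933, 0.838, 0.230 and 1.44 TPM. Ligands thus moved in opposite directions while Smad6 (-0.09, padj = 0.488) was not called. In the same libraries the summed TPM of 10 lung and tracheal epithelium markers went from 819 to 907 at E12.5 up to 4176 to 9938 at E15.5, where Sftpc was the most abundant. That of 7 blood endothelium markers, led by Cdh5, went from 418 to 533 up to 987 to 1218. The part of these cells in the stage differences was not tested.

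Trachea and lung at E15.5 divided the ligands between them. Relative to lung, trachea had more Bmp2 (log2 FC 2.75, SE 0.18, padj = 4.45e-06), Bmp6 (1.90, SE 0.22, padj = 0.000104), Bmp7 (0.84, SE 0.20, padj = 0.00746) and Grem1 (2.78, SE 0.49, padj = 0.00146). It had less Bmp4 (-0.95, SE 0.07, padj = 1.14e-05) and Bmp5 (-1.10, SE 0.07, padj = 5.12e-06). These were 4 genes higher and 2 lower of 10, beside 30.2% of all genes called (20.1% higher, 10.1% lower). Bmper, at 0.57 (SE 0.18, padj = 0.0278), lay just under the fold limit and was called at 0.75 without wt trachea replicate 3. Id1 (-0.20, padj = 0.304) and Smad6 (-0.09, padj = 0.482) were not called. The wt trachea libraries held 1183 to 1686 TPM of cartilage markers beside the heart muscle markers given above, and the part of these tissues in the values was not tested.

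The diaphragm, a sheet of skeletal muscle with mesothelium and connective tissue, had low levels of both response genes. Against E15.5 lung, Id1 was lower by a log2 FC of -1.25 (SE 0.19, padj = 0.000375) and Smad6 by -1.35 (SE 0.13, padj = 2.39e-05). Bmp4 (-0.89, SE 0.10, padj = 6.75e-05), Bmp5 (-3.21, SE 0.38, padj = 8.91e-05) and Bmper (-2.28, SE 0.21, padj = 1.84e-05) were lower too. In the same libraries the blood endothelium markers summed to 315 to 396 TPM in diaphragm and 987 to 1218 TPM in lung, and the lung and tracheal epithelium markers to 48.4 to 655 and 4176 to 9938 TPM. The liver markers summed to 1510 to 8531 TPM in diaphragm and 4.21 to 42.1 TPM in lung. Their part in these differences was not tested. Bmp2 (1.02), Bmp6 (0.70), Nog (1.03) and Grem1 (2.41) were higher, with padj of 0.000577, 0.0309, 0.000232 and 0.00172. That is 4 higher and 5 lower of 10, beside 36.4% of all genes called (20.9% higher, 15.6% lower). The Bmp6 call held in 3 of the 8 fits that left out 1 library, and it was lost with the replicate number as a block (0.72, padj = 0.0647).

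Against trachea, 7 of the 10 genes were lower in diaphragm and 1 was higher, beside 32.5% of all genes called (14.1% higher, 18.4% lower). Nog was the higher gene (1.48, SE 0.27, padj = 0.00178). The lower genes were Bmp2 (-1.77), Bmp5 (-2.16), Bmp6 (-1.24), Bmp7 (-1.07), Bmper (-2.89), Id1 (-1.10) and Smad6 (-1.3), with padj from 6.11e-05 to 0.00181. Nog was therefore the gene that diaphragm held above both neighbours, at 26.9, 28.4, 24.8 and 25 TPM. Bmp4 was near equal on the count scale (0.02, SE 0.11, padj = 0.921), with a log2 TPM ratio of -0.27. Between the same libraries the summed cartilage markers were 1183 to 1686 TPM in trachea and 21.1 to 35.9 TPM in diaphragm, the heart muscle markers 3138 to 5509 and 81.8 to 136 TPM, and the epithelium markers 1461 to 2671 and 48.4 to 655 TPM. Skeletal muscle markers were 131 to 685 TPM in trachea and 14771 to 30611 TPM in diaphragm. The part of these tissues in the BMP genes was not tested.

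In diaphragm the size of the Bmp5 and Bmper differences depended on wt replicate 3, the library with the most lung markers. Bmp5 was 2.41, 2.75, 9.80 and 3.89 TPM and Bmper 5.36, 4.79, 9.54 and 4.56 TPM in wt replicates 1 to 4, replicate 3 being the highest for both. Without it Bmp5 was lower than in lung by a log2 FC of -3.79 and lower than in trachea by -2.71, and Bmper by -2.56 and -3.12. The 4 calls were kept in both settings. Among the mutants Bmp5 was highest in replicate 3 (7.33 TPM, others 4.27 to 4.65), and no mutant exceeded 132 TPM of the markers. The part of lung tissue in the Bmp5 and Bmper values was not tested.

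**Figure D3:**
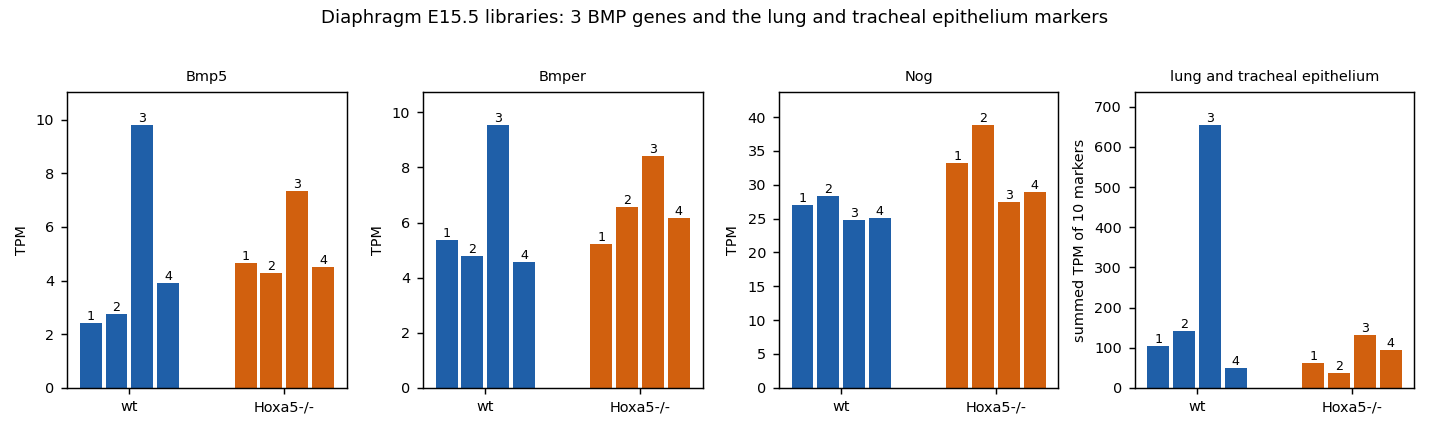
Bars for each diaphragm library (replicate number above, wt in blue, Hoxa5-/- in orange) of Bmp5, Bmper and Nog in TPM and of the summed TPM of 10 lung and tracheal epithelium markers. The wt replicate 3 is highest among wt for Bmp5 (9.80 TPM), Bmper (9.54 TPM) and the markers (655 TPM), but not for Nog (24.8 TPM).

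The somites showed the broadest rise of the BMP genes. From E10.5 to E12.5, all 5 ligands and all 3 antagonists rose, 8 of 10 genes, where 42.6% of all genes were called (24.1% higher, 18.4% lower). Bmp2 went from 4.03, 3.54, 4.98 and 3.99 TPM to 22.7, 21.1, 24.2 and 24.5 TPM (log2 FC 2.42, SE 0.12, padj = 9.45e-10). Nog went from 5.56, 7.71, 9.71 and 5.84 TPM to 41.2, 45.4, 38.2 and 35.1 TPM (2.41, SE 0.16, padj = 2.08e-08). The stages did not overlap for either gene. Bmper rose by 2.02 (SE 0.09), Bmp6 by 1.61 (SE 0.17), Bmp5 by 1.33 (SE 0.11), Bmp7 by 1.32 (SE 0.11), Grem1 by 1.25 (SE 0.12) and Bmp4 by 0.73 (SE 0.10), with padj of at most 2.13e-05. Neither response gene was called, and the difference between them and the ligands was not tested. Id1 was 175, 173, 176 and 179 TPM at E10.5 and 194, 176, 192 and 191 TPM at E12.5 (0.03, SE 0.07, padj = 0.701), and Smad6 changed by 0.52 (SE 0.11, padj = 0.00095), under the fold limit. In the same libraries neural tissue markers summed to 891 to 1451 TPM at E10.5 and 295 to 693 TPM at E12.5, while cartilage markers went from 247 to 376 TPM up to 1903 to 2703 TPM. Skeletal muscle markers went from 149 to 299 TPM up to 1994 to 3079 TPM. Smooth muscle and foregut markers went from 179 to 207 TPM up to 715 to 795 TPM, and blood endothelium markers from 180 to 225 TPM up to 363 to 405 TPM. The part of these tissues in the BMP genes was not tested.

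In iBAT relative to E12.5 somites, 7 of the 10 genes were lower and none higher, beside 66.3% of all genes called (31% higher, 35.3% lower). The lower genes were led by Grem1 (-5.79, SE 0.20, padj = 6.44e-13), Nog (-4.12, SE 0.19), Bmp4 (-3.53, SE 0.15), Bmp2 (-3.35, SE 0.13), Bmp7 (-3.33, SE 0.15) and Bmp5 (-2.84, SE 0.15). The median log2 FC was -3.08 over the 10 genes and -0.16 over all genes. Bmper was lower by -0.68 (SE 0.13, padj = 0.000247), and this call was lost without wt iBAT replicate 4 (-0.57). Bmp6 was the ligand that did not differ in TMM-scaled counts (-0.00, SE 0.17, padj = 0.992). In TMM-scaled CPM it had 10.51, 15.3, 13.9, 8.11 and 7.71 in iBAT and 11.3, 12.9, 12.3 and 11.5 in somites, although its TPM was lower in iBAT. For Id1 the scales disagreed in sign, with a log2 FC of 0.43 (SE 0.09, padj = 0.000287, under the fold limit) but a log2 TPM ratio of -0.78. Smad6 was -0.47 (SE 0.13, padj = 0.0032), also under the fold limit. Tissue and stage both differ between these groups and cannot be told apart. The summed cartilage markers were 1903 to 2703 TPM in E12.5 somites and 1.71 to 3.92 TPM in iBAT, the neural markers 295 to 693 and 1.84 to 2.87 TPM, and the skeletal muscle markers 1994 to 3079 and 344 to 1457 TPM, while brown fat markers were 63.6 to 71.7 and 14371 to 20800 TPM. Their part in these differences was not tested.

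**Figure D4:**
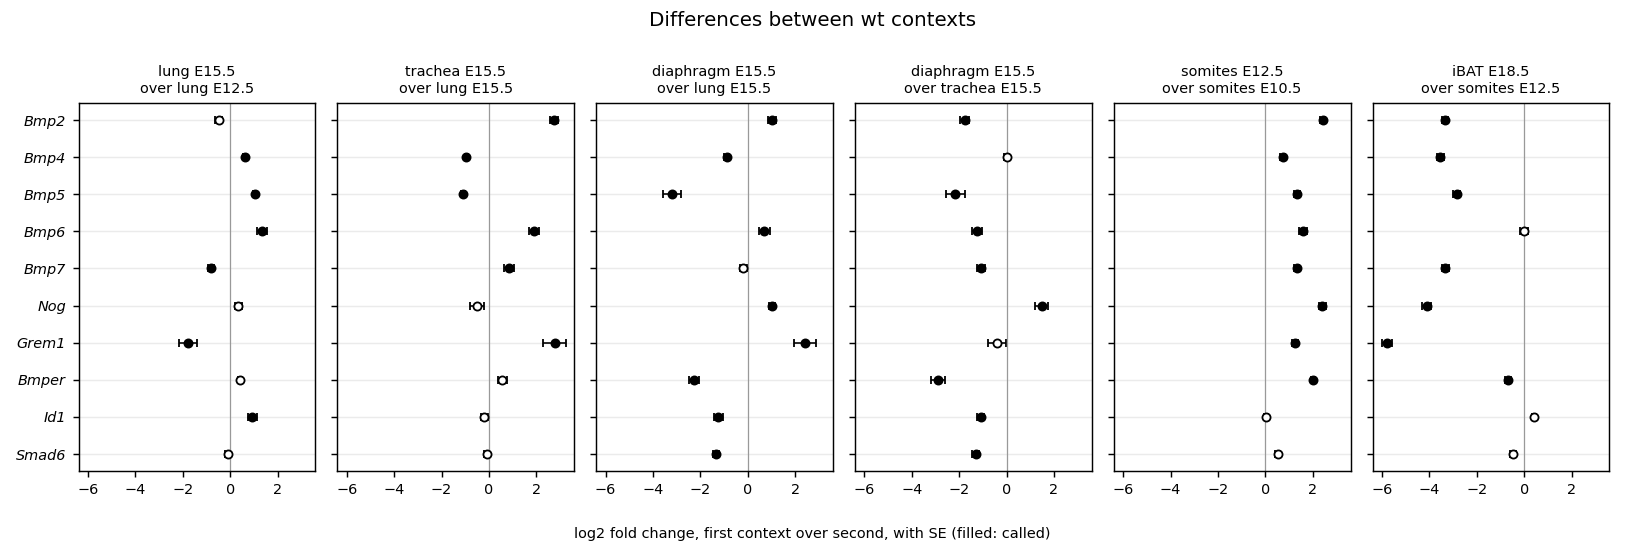
Log2 FC with SE (edgeR) of each of the 10 genes between wt tissues or stages, in 6 comparisons, with filled points for called genes. All 5 ligands and 3 antagonists are filled and above 0 in somites from E10.5 to E12.5 (0.73 to 2.42), while Id1 and Smad6 are open.

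Another 58 genes of the pathway were read beside these 10: other BMP and GDF ligands, receptors and co-receptors, Smads and their regulators, other extracellular antagonists, and other response genes. In somites from E10.5 to E12.5, 34 of 52 tested rose and 4 fell, beside 24.1% and 18.4% of all genes, with a median log2 FC of 0.98 against -0.04 over all genes. Of the 17 other antagonists and modulators 16 rose and 1 fell, and all 5 other ligands tested rose. Of the 11 other response genes 4 rose (Dlx5, Tbx2, Tbx3 and Atoh8) and 2 fell (Msx1 and Msx2), with a median of 0.04. Gdf5, the ligand of forming joints, went from 0.175 ± 0.107 to 12.54 ± 1.48 TPM (log2 FC 6.06, SE 0.27, padj = 5.69e-10), and Dlx5, a homeobox gene of skeletal cells, from 0.512 ± 0.162 to 33.0 ± 5.87 TPM (5.91, SE 0.20). The genes that fell most were Sost, the antagonist sclerostin (-3.12, SE 0.26), and Msx1, a homeobox target of BMPs (-2.03, SE 0.18).

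Between trachea and lung at E15.5, 52 of the 58 genes were tested and 22 were higher and 5 lower in trachea, beside 20.1% and 10.1% of all genes, with a median log2 FC of 0.43 against 0.02 over all genes. Of the other antagonists and modulators 10 of 16 were higher and none lower, and of the other ligands 5 of 6 were higher and none lower. The roles were not tested against each other. Sostdc1, an antagonist of both BMP and Wnt ligands, had 53.6 ± 8.74 TPM in trachea and 1.03 ± 0.227 TPM in lung (5.66, SE 0.20, padj = 2.33e-07). Hjv, a co-receptor of skeletal muscle and liver, was higher too (5.30, SE 0.64), at 4.98 ± 3.28 TPM, where 8 skeletal muscle markers summed to 131 to 685 TPM in trachea and 9.21 to 22 TPM in lung, and their part was not tested. Tbx2, a T-box gene of lung mesenchyme (-1.77, SE 0.11), and Acvrl1, the type I receptor of blood endothelium (-1.61, SE 0.21), were lower. All 7 blood endothelium markers were called lower as well, summing to 373 to 421 TPM in trachea and 987 to 1218 TPM in lung, and their part in the Acvrl1 value was not tested. Within lung, 14 of 49 rose and 11 fell between the stages, beside 15.4% and 9.15% of all genes (median 0.14 against -0.01), led by Bmp8b (2.29, SE 0.32) and Gdf10 (2.24, SE 0.27) upwards and by Msx2 (-3.52, SE 0.30) and Gdf6 (-3.10, SE 0.43) downwards.

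In diaphragm against lung 19 of 51 were higher and 15 lower, beside 20.9% and 15.6% of all genes, with a median of -0.03 against -0.01. Hjv stood at 315 ± 53.6 TPM in diaphragm and 0.124 ± 0.0820 TPM in lung, and Fst, the antagonist follistatin, at 19.8 ± 3.02 and 0.524 ± 0.0920 TPM. Acvrl1 (-2.55, SE 0.21) and Smad9 (-2.41, SE 0.21) were lowest relative to lung, and 6 of 9 other response genes were lower and 1 higher. Against trachea 10 of 54 were higher and 20 lower, beside 14.1% and 18.4% of all genes (median -0.30 against -0.04), led by Hjv (6.29, SE 0.43) and Gdf2 (2.29, SE 0.54) and by Bmp8b (-3.71, SE 0.34) and Msx2 (-3.50, SE 0.45). Gdf2 is a ligand made by the liver, and the summed TPM of 5 liver markers was 1510 to 8531 in wt diaphragm libraries and 7.13 to 51.1 in wt trachea, and their part in the Gdf2 difference was not tested. In iBAT against E12.5 somites 39 of 51 were lower and 4 higher, beside 35.3% and 31% of all genes (median -1.45 against -0.16), the higher genes with the largest FC being Acvrl1 (1.77, SE 0.07) and Dand5 (1.25, SE 0.22). Blood endothelium markers summed to 461 to 559 TPM in wt iBAT and 363 to 405 TPM in wt E12.5 somites. Their part in the Acvrl1 value was not tested. Gdf6 (0.0580 TPM in iBAT) and Msx2 (at most 0.0360 TPM) were the lower genes with the largest FC.

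Loss of Hoxa5 called none of the 10 genes in any tissue by edgeR. Of the 70 pairs of gene and tissue 66 were tested, 12 had an unadjusted p under 0.05, the lowest padj was 0.111, and DESeq2 called 1, Bmp6 in E12.5 lung. Bmp2, Nog and Grem1 in iBAT and Grem1 in E15.5 lung stayed under the minimum of 1 TPM in both genotypes and were not tested. The background was low as well: edgeR called 0.0156% of all genes tested in trachea, 0.0798% in E12.5 lung, 0.124% in E15.5 lung, 0.594% in diaphragm, 0.0215% in E10.5 somites, 0.00529% in E12.5 somites and 0.00657% in iBAT. The 12 low p-values fell on 3 genes in trachea, 2 each in E12.5 lung, E15.5 lung, E10.5 somites and iBAT, and 1 in diaphragm. The share of all genes with an unadjusted p under 0.05 was 6.7%, 8.01%, 6.32%, 12.7%, 2.47% and 13% in that order, and 3.24% in E12.5 somites. DESeq2 called 0.271% of all genes in trachea, 0.462% in E12.5 lung, 0.467% in E15.5 lung, 2.25% in diaphragm, 0.0969% in E10.5 somites, 0.0106% in E12.5 somites and 0.0263% in iBAT. A test that misses the threshold does not show that the genotypes were alike.

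Bmp6 in E12.5 lung came closest. It measured 1.61, 1.39, 1.65 and 1.81 TPM in wt and 2.97, 3.56, 3.90 and 2.34 TPM in Hoxa5-/- lung. Every mutant library lay above every wt library. The log2 FC was 1.01 (SE 0.19) with an unadjusted p of 0.000253 and padj = 0.111 by edgeR, and 1.02 with padj = 0.0013 by DESeq2. Without the mutant library rich in blood genes it was 1.01 (SE 0.19, padj = 0.133). At E15.5 the wt lungs had 3.13, 3.59, 5.91 and 4.05 TPM and the mutants 3.29, 1.81, 4.29 and 2.62 TPM, which overlapped (-0.36, SE 0.29, padj = 0.913). The difference of the genotype effect between the stages was -1.36 (SE 0.36, unadjusted p = 0.00143, padj = 0.54) by edgeR, with padj = 0.12 by DESeq2. The summed TPM of 7 cartilage markers was 156 to 179 in wt and 197 to 225 in Hoxa5-/- E12.5 lung, with Col9a1 called (1.17, SE 0.08, padj = 9.04e-05). The most abundant was Sox9, which is also in the epithelium list, at a mean of 81.6 TPM in wt and 98.6 TPM in mutants. Matn1 was under 0.1 TPM in both, and 4 of the 7 reached 1 TPM in wt against 3 in mutants. Their part in the Bmp6 values was not tested.

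In trachea the lowest p belonged to Bmp5, at 25.3, 25, 24.2 and 28.3 TPM in wt and 38.6, 30.8, 33.3 and 34.5 TPM in mutants. The genotypes did not overlap, and the log2 FC was 0.41 (SE 0.09, padj = 0.542 by edgeR, 0.0119 by DESeq2 but under the fold limit), or 0.43 (SE 0.10, padj = 0.253) without the mutant library rich in cartilage and muscle. Nog was 13.6, 11, 5.83 and 16.3 TPM against 20.3, 15.3, 24 and 20.4 TPM, which overlapped. Its log2 FC was 0.78 (SE 0.29, padj = 0.736), or 0.68 (SE 0.32, padj = 0.387) without that library. Id1 was 197, 211, 198 and 242 TPM in wt and 278, 267, 224 and 274 TPM in Hoxa5-/- (0.29, SE 0.09, padj = 0.682), with 1 mutant inside the wt range, and 0.36 (SE 0.09, padj = 0.253) without replicate 3, the library inside it. Bmp2, Bmp4, Bmp6, Bmp7, Grem1, Bmper and Smad6 lay between -0.31 and 0.16, Bmp6 reaching -0.45 (SE 0.16, padj = 0.308) without that library. The 5 heart muscle markers, led by Myl7, differed between the same groups without overlap, at 3138 to 5509 TPM in wt and 1534 to 3039 TPM in mutants, and their part in the Bmp5, Nog and Id1 values was not tested.

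In E15.5 lung Bmp2 (0.40, SE 0.14, padj = 0.659) and Bmp5 (0.24, SE 0.07, padj = 0.442) had an unadjusted p under 0.05. Hoxa5-/- replicate 4, the library with few epithelial and endothelial transcripts, had low Bmp4 (96.1 TPM against 151 to 188 in the other mutants), Id1 (92.8 against 183 to 278) and Smad6 (23 against 37.6 to 44.2 TPM). The paper's read statistics give this library the lowest shares of mapped reads and of alignments assigned to genes among the E15.5 lung libraries. The part of read quality in its low values was not tested. In TMM-scaled CPM it stayed the lowest mutant, with 77.7 for Bmp4 (85.3 to 107 in the other mutants), 38.7 for Id1 (53.1 to 81.1) and 26.5 for Smad6 (30.1 to 35.7). Without that library Bmp2 went to 0.47 (SE 0.14, padj = 0.741), Bmp5 to 0.22 (SE 0.07, padj = 0.767) and Id1 from -0.30 (SE 0.22) to -0.16 (SE 0.20), and none of the 9 genes tested was called in either setting. The 7 blood endothelium markers summed to 987 to 1218 TPM in wt and 537 to 930 TPM in mutants, without overlap (835 to 930 TPM in the mutants other than replicate 4), and none of them was called. Their part in these values was not tested.

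Diaphragm, the tissue with the most genotype calls, gave none among the 10. Nog was 26.9, 28.4, 24.8 and 25 TPM in wt and 33.2, 38.8, 27.4 and 29 TPM in Hoxa5-/- (0.28, SE 0.11, padj = 0.333), with 1 mutant inside the wt range. Bmp5 had a log2 FC of 0.14 (SE 0.42, padj = 0.91), which became 0.76 (SE 0.25, padj = 0.221) without wt replicate 3, and Bmper went from 0.12 (SE 0.25) to 0.41 (SE 0.17, padj = 0.298). Of the 58 other pathway genes 50 were tested here and edgeR called 2, beside 0.594% of all genes, both lower in mutants: Id4, a relative of Id1 (-1.18, SE 0.19, padj = 0.0322), and Acvrl1 (-0.95, SE 0.16, padj = 0.0412). Without wt replicate 3 both kept their calls (-1.24, padj = 0.0352, and -0.78, padj = 0.0273), and Sostdc1 was called as well (-2.26, SE 0.34, padj = 0.032). DESeq2 called 5 with all libraries, beside 2.25% of all genes, adding Sostdc1 (padj = 0.000134) as lower and 2 genes as higher in mutants, Fst (padj = 0.0104, edgeR log2 FC 0.66 and padj = 0.15) and the ligand Gdf6 (padj = 0.00123, edgeR log2 FC 0.65 and padj = 0.0813), which are named after their values were seen. Id4 was 3.96 ± 0.961 TPM in wt and 1.75 ± 0.254 TPM in Hoxa5-/- diaphragm (n = 4 each). In the same comparison the neural markers Stmn2, Tubb3 and Sox10 were called lower, as were 4 of 7 smooth muscle and foregut markers (Actg2, Cnn1, Foxf2 and Myh11) and the epithelial gene Esrp1. The neural markers summed to 32.5 to 70.7 TPM in wt and 8.75 to 12.7 TPM in mutants (Sox10 the most abundant, Elavl3 under 0.1 TPM in mutants). The smooth muscle and foregut markers, led by Acta2, summed to 1233 to 2020 TPM in wt and 902 to 1270 TPM in mutants. The 7 blood endothelium markers, led by Cdh5, summed to 315 to 396 TPM in wt and 230 to 311 TPM in mutants without overlap, and none of them was called. The 5 liver markers summed to 1510 to 8531 TPM in wt and 346 to 10507 TPM in mutants, which overlapped. The part of all these tissues in the Id4 and Acvrl1 values was not tested.

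**Figure D5:**
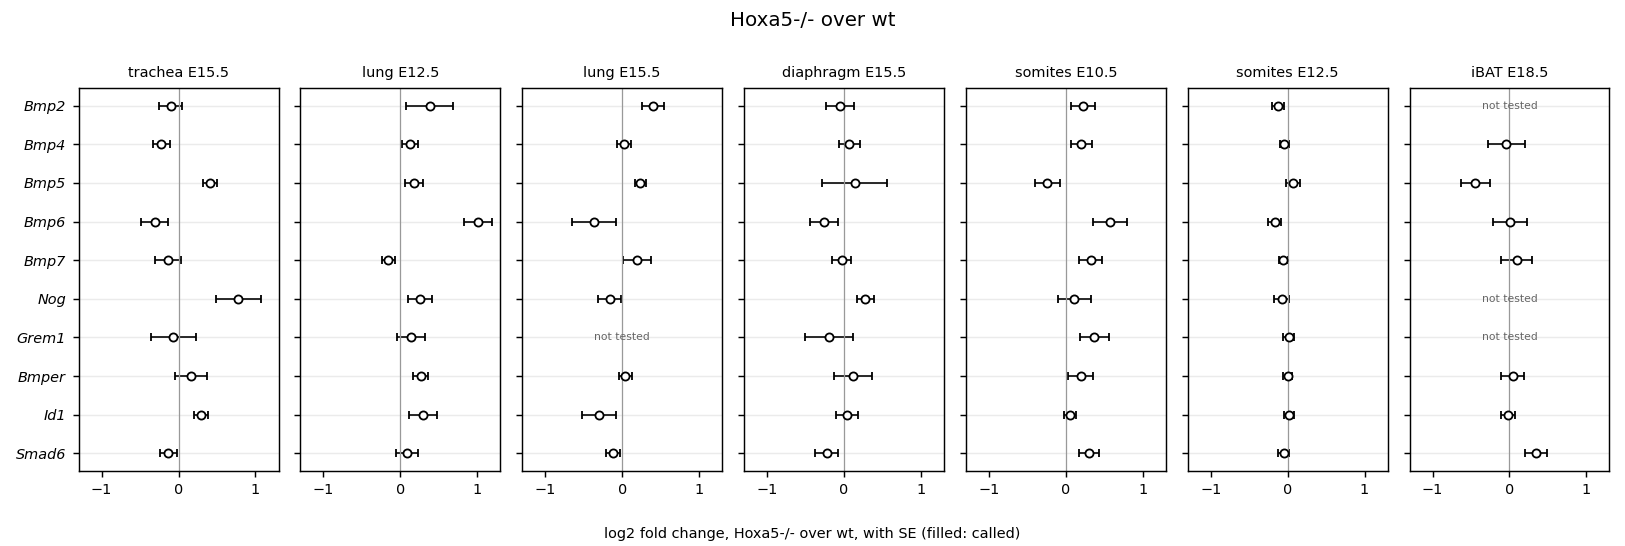
Log2 FC of Hoxa5-/- over wt with SE (edgeR) for each of the 10 genes in the 7 tissues and stages. All points are open because none was called, 4 pairs under 1 TPM are marked as not tested, and Bmp6 in E12.5 lung lies furthest from 0 (1.01).

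Somites at E10.5 depended on 1 library. Bmp6 was 3.16, 3.71, 6.31 and 3.67 TPM in wt replicates 1 to 4 and 5.41, 6.34 and 7.52 TPM in mutants, so that only wt replicate 3 lay within the mutant range. The log2 FC was 0.58 (SE 0.22, padj = 0.391) with it and 0.80 (SE 0.17, padj = 0.0218, called) without it. Bmp7 behaved alike, with 18.9, 19.4, 31.1 and 22.4 TPM in wt and 33.7, 30.9 and 24.5 TPM in Hoxa5-/- (0.33, SE 0.15, padj = 0.392), reaching 0.48 (SE 0.11, padj = 0.0259, under the fold limit) without that library. Wt replicate 3 also had 299 TPM of skeletal muscle markers, where the other wt libraries had 149 to 218 TPM and the mutants 274 to 357 TPM. Its part in these values was not tested. Smad6 was 15.1, 20.4, 21.9 and 17.4 TPM in wt and 25.8, 25.3 and 20.5 TPM in mutants (0.30, SE 0.13, padj = 0.391), and 0.36 (SE 0.13, padj = 0.0926) without wt replicate 3. At E12.5 the 10 genes lay between -0.17 and 0.07, none with an unadjusted p under 0.05. Bmp6 there was 13.1, 14.1, 13.5 and 12.6 TPM in wt and 11.9, 12.1, 12.53 and 10.7 TPM in mutants, without overlap (-0.17, SE 0.08, padj = 0.999).

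In iBAT the 7 genes tested had padj of 1. Bmp5, at 1.81, 1.58, 1.98, 1.10 and 1.80 TPM in wt and 1.12, 1.05, 1.33, 1.21 and 1.16 TPM in Hoxa5-/-, had a log2 FC of -0.44 (SE 0.19, unadjusted p = 0.0318) with 1 wt library inside the mutant range. Smad6 was 7.09, 8.35, 8.07, 11.3 and 8.94 TPM against 9.02, 9.98, 12.6, 10.1 and 11.8 TPM (0.34, SE 0.15, unadjusted p = 0.0337), which overlapped. The names of wt and mutant iBAT libraries share leading numbers, and with these as a block none of the 7 genes was called. Over all tissues, the TPM of wt and mutant libraries did not overlap in 4 of the 66 tests, Bmp5 in trachea, Bmp6 in E12.5 lung, Id1 in E10.5 somites (173 to 179 against 182 to 198 TPM, with a log2 FC of 0.04, SE 0.06, padj = 0.714 without wt replicate 3) and Bmp6 in E12.5 somites. The shares of all genes without overlap were 3.74%, 4.09%, 7.37% and 2.51% in these tissues, 2.96% in E15.5 lung, 6.87% in diaphragm and 0.316% in iBAT.

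Whether the effect of Hoxa5 loss differed between tissues or stages was tested in 5 comparisons. None of the 50 tests of the 10 genes was called by edgeR or by DESeq2, and 9 had an unadjusted p under 0.05 (lowest padj 0.327). The share of all genes called was 0.0267% between lung stages, 0.00502% between trachea and lung, 0.73% between diaphragm and lung, 0.439% between diaphragm and trachea and 0.0147% between somite stages by edgeR. DESeq2 called 0.0961%, 0.296%, 1.61%, 1.86% and 0.0833% in the same order, and 5.25%, 5.04%, 8.46%, 9.07% and 14.3% had an unadjusted p under 0.05 by edgeR. Without wt replicate 3 of the E10.5 somites, the somite stages differed in the effect on Bmp6 (-0.96, padj = 0.00557) and Bmp7 (-0.53, padj = 0.0121), in a setting where the number of genes called rose from 3 to 2580. Among the other pathway genes Sostdc1 (-2.54, SE 0.53, padj = 0.0359) and Id4 (-1.23, SE 0.20, padj = 0.011) were called by edgeR between diaphragm and lung. Without Hoxa5-/- replicate 4 of E15.5 lung the Sostdc1 call was lost (-2.37, padj = 0.0846) and that of Id4 kept (-1.18, padj = 0.0254), and both were kept without wt replicate 3 of diaphragm. Between diaphragm and trachea, Id4 was called without Hoxa5-/- replicate 3 of trachea (-1.07, padj = 0.0201). It was also called without wt replicate 3 of diaphragm (-1.05, padj = 0.0364). Sostdc1 was called there without the diaphragm library (-2.34, padj = 0.0131) but not without the trachea library (-1.94, padj = 0.0738). Between somite stages without wt replicate 3 of E10.5, Sostdc1 (-0.94, padj = 0.0102) and Acvrl1 (-0.46, padj = 0.0389) were called. Sostdc1 was 9.29 ± 4.06 TPM in wt and 2.31 ± 0.982 TPM in mutant diaphragm. The 5 comparisons share libraries with each other and with those above.

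The pattern of each gene over the 57 libraries was also set beside that of every other gene (Pearson r of log2(TPM + 1)). These values describe the libraries, which share tissue and, within a table, sequencing centre and read type. Of the 20 partners named here, 1 was kept in the trachea, lung and diaphragm libraries alone, 0 in somites and iBAT alone, and 6 by rank correlation. Bmp4 was most like Arhgef17 and Cdh3 (r = 0.99 each), Bmp7 like Kifap3 and Cnih2 (0.98 each), Bmp5 like Carmil1 (0.98) and Etv1 (0.97), and Nog like Lima1 and Stk26 (0.97 each). Bmp2 was most like Pcdh9 (0.97) and the cartilage collagen Col9a2 (0.96), and Grem1 like Hs3st3a1 and Ube2ql1 (0.96 each). Smad6 was most like Fam102a and Cldn4 (0.96 each), and Bmper like Erg and Epb41l1 (0.93 each). Id1 and Bmp6 had the lowest best values, Id1 with Srcin1 (0.87) and Ikzf2 (0.85) and Bmp6 with Ntrk2 (0.89) and Mylip (0.88). Within the set, Bmp5 and Smad6 were closest (0.91), followed by Bmp5 and Bmper (0.85), and Bmp6 was least tied to the others, its highest r being 0.64 with Bmp2.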

How the data were processed

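Per the labels, polyA RNA libraries were sequenced from wt and Hoxa5-/- tissues on the 129/Sv background. The submitters' processing notes name Trim Galore 0.6.5, STAR 2.7.9a, featureCounts 2.0.3 and GRCm39. The authors deposited raw counts per gene and TPM made from these counts by exon length, in 1 table for trachea, lung and diaphragm (32 libraries) and 1 for somites and iBAT (25 libraries). The study used DESeq2. Of the gene names, 2573 use a different separator in 1 of the tables and were matched across it.

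Here counts were tested by edgeR 4.0.16 in R 4.3.3 (quasi-likelihood test, TMM, Benjamini-Hochberg), and with DESeq2 1.42.0 as an alternative, keeping genes whose TPM averaged 1 or more in 1 of the groups. Calls needed an adjusted p under 0.05 and a fold of at least 1.5, and interactions the adjusted p alone. The script was tested on simulated data. Wt and Hoxa5-/- libraries were compared in each of 7 tissues and stages, wt tissues in 6 comparisons and genotype effects in 5. Other settings were a replicate block, 1 fit per table, other filters, DESeq2 size factors and leaving out each library. In iBAT the leading number of the library names, which wt and mutant libraries share, was also used as a block. Replicate numbers were checked for pairing by the correlation of deviations from group means. In iBAT every same-numbered pair exceeded 0.1 (0.128 to 0.396), and the other tissues did not meet this.

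Named genes were the 10 members, up to 2 of the 58 other pathway genes called with the largest rise and fall per comparison, and 2 genes most like each member by Pearson r of log2(TPM + 1) over all libraries. Members and lists were chosen with earlier results of these data known. Replicates measure the spread between these samples, and counting error was not separated from it. Python 3.11.15, pandas 2.3.3, numpy 2.4.6, matplotlib 3.10.9 and samtools 1.23.1 served for tables, figures and sequences.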

Additional observations from a re-analysis of the deposited data

Results flagged for a closer look

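In groups of 4 or 5 libraries, the highest or lowest library was screened for a gap to its neighbour that is large against the range of the group (Dixon's test). It marked 9 of 130 groups, and chance alone marks about 1 in 20. Groups of 3 were not screened. In trachea, Bmp2 was 17.2 TPM in wt replicate 3 where the others had 26.9 to 27.4 TPM, and Bmper was 45 TPM in Hoxa5-/- replicate 3 where the others had 66.5 to 68.2 TPM. In diaphragm, Bmper was 9.54 TPM in wt replicate 3 (others 4.56 to 5.36), Bmp4 was 93.9 TPM in Hoxa5-/- replicate 2 (others 63.7 to 67.1), and Bmp5 was 7.33 TPM in Hoxa5-/- replicate 3 (others 4.27 to 4.65). In E12.5 somites, Grem1 was 31.4 TPM in Hoxa5-/- replicate 3 (others 28.1 to 28.3) and Smad6 was 25.5 TPM in wt replicate 3 (others 28.8 to 29.3). Smad6 was 54.8 TPM in wt replicate 1 of E12.5 lung (others 39.7 to 41.4). Grem1 was 1.03 TPM in Hoxa5-/- replicate 1 of iBAT (others 0.0783 to 0.211), a gene under the level needed for a test there.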

How the results depend on the processing

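Of the 10 genes, the number called between genotypes stayed at 0 in all settings except DESeq2 in E12.5 lung, which gave 1 (Bmp6), and the fits leaving out 1 library in E10.5 somites (0 to 1). Between somite stages the interaction gave 0 to 2 when 1 library was left out. With the replicate block no call among the 10 changed between genotypes or in interactions, and between tissues Bmp6 in diaphragm against lung was lost (0.72, adjusted p 0.0647). Bmper in trachea against lung, and Smad6 in somite stages and in iBAT, passed the fold limit in 2, 1 and 1 of the fits leaving out 1 library. No call of a member reversed. Over all genes, DESeq2 called 52, 81, 83, 406, 18, 2 and 4 between genotypes in trachea, E12.5 lung, E15.5 lung, diaphragm, E10.5 somites, E12.5 somites and iBAT, against 3, 14, 22, 107, 4, 1 and 1 by edgeR, and 1, 4, 104, 358, 0, 2 and 2 with the replicate block. Leaving out 1 library gave 0 to 1, 5 to 14, 5 to 37, 30 to 139, 1 to 386, 1 to 2 and 1. One fit per table gave 40 in trachea, 38 in E15.5 lung, 355 in diaphragm, 28 in E10.5 somites, 2 in E12.5 somites and 3 in iBAT, and no filter on low values gave 32 in E12.5 lung, 196 in diaphragm, 147 in E10.5 somites, 10 in E12.5 somites and 6 in iBAT. Hoxa5 kept its call in 0 of 8 fits leaving out 1 library in trachea and 1 of 7 in E10.5 somites. In the interactions (lung stages, trachea and lung, diaphragm and lung, diaphragm and trachea, somite stages) edgeR called 5, 1, 142, 89 and 3 genes, DESeq2 18, 59, 314, 378 and 17, and fits leaving out 1 library 0 to 7, 0 to 2, 63 to 222, 49 to 179 and 2 to 2580. The replicate block gave 19 between trachea and lung, and no filter 318 between somite stages. Without a fold minimum edgeR called 9107 genes between wt lung stages, and 9584, 11138 and 9669 for trachea and lung, diaphragm and lung, and diaphragm and trachea, against 4466, 5838, 6915 and 6412. Of the 20 genes named as most like a member, 13 were kept with a pseudocount of 0.1, 6 by rank correlation, 1 in trachea, lung and diaphragm alone and 0 in somites and iBAT alone. The tissue with the highest level was kept for 9 to 10 genes when 1 wt library was left out. The cause was not tested.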

Other observations

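In trachea, Gdf5, the ligand of forming joints, and Chrdl1, an antagonist related to chordin, had higher values in Hoxa5-/- embryos. Both fell outside the naming rule and were chosen after their values were seen. Gdf5 was 4.71 ± 0.672 TPM in wt and 14.4 ± 2.83 TPM in mutant trachea (n = 4 each), with ranges of 3.85 to 5.28 and 11.4 to 18.1 TPM that did not overlap. Chrdl1 was 11.3 ± 4.16 and 25.8 ± 2.84 TPM, with ranges of 7.35 to 17.1 and 22.7 to 29.6 TPM. Neither passed the edgeR test (log2 FC 1.61, padj = 0.0674, and 1.18, padj = 0.492), and DESeq2 called both (padj = 1.52e-11 and 0.000676). Without Hoxa5-/- replicate 3, the library rich in cartilage markers, the edgeR values were 1.48 (padj = 0.115) and 1.24 (padj = 0.226). Heart muscle markers in the same comparison summed to 3138 to 5509 TPM in wt and 1534 to 3039 TPM in mutants. Gdf5 in E12.5 lung was 1.21 ± 0.442 TPM in wt and 2.7 ± 0.661 TPM in mutants, called by DESeq2 (padj = 0.0417) and not by edgeR (padj = 0.258). Cartilage markers there summed to 156 to 179 TPM in wt and 197 to 225 TPM in mutants, led by Sox9, which is also in the epithelium list. The part of these tissues in the Gdf5 and Chrdl1 values was not tested.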
